A study of Mus musculus with 4 samples.

Results

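The genes described here are 3 SoxB1 transcription factors (Sox1, Sox2 and Sox3), the SoxB2 factor Sox21 and 4 genes used as marks of neuroepithelial progenitors (Nes, Fabp7, Msi1 and Prom1). They were a named list, matched by gene symbol, and all 8 were present among the 54532 gene IDs of the count table. Their RNA was measured by sequencing in 4 libraries, 1 per embryo, made from neural tubes dissected out of the heads of mouse embryos at day 10.5. The DCKO group (2 libraries, DCKO 1 and DCKO 2) carried Lats1 flox/flox, Lats2 flox/flox and the Cre transgene E2f1 Tg(Wnt1-cre)2Sor/+. The Control group (2 libraries, Control 1 and Control 2) lacked that transgene. The labels name no floxed allele in Control embryos and no embryo's sex, so loss of Lats1 and Lats2 and presence of Cre cannot be told apart. Wnt1-Cre acts in dorsal midline neuroepithelium and in migrating crest cells, and not across the whole tube that was dissected. The comparison sets cranial neural tube RNA of DCKO embryos against that of Control embryos. Lats1 and Lats2 encode kinases of the Hippo pathway.

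SoxB1 proteins are HMG-box activators that are expressed across the early neural plate and tube, where they hold cells in a proliferating, undifferentiated state. They bind DNA next to partner factors, among them POU proteins, and share many target sites with one another. Sox21 is a repressor of the related SoxB2 group and works against SoxB1 activity during neuronal differentiation. Nes encodes the intermediate filament nestin, Fabp7 the brain lipid-binding protein of radial glia, Msi1 an RNA-binding regulator of translation, and Prom1 the membrane glycoprotein prominin of apical protrusions.

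Of the 8 genes, 6 fell in the DCKO libraries, none rose, and the other two, Fabp7 and Prom1, did not pass the test. The 6 are Sox1, Sox2, Sox3, Sox21, Nes and Msi1, which is 75.0% of the list, against 8.11% of all 19207 tested genes that were lower in DCKO (edgeR's quasi-likelihood test, Benjamini-Hochberg adjusted p under 0.05). In edgeR 0 members were higher, against 8.93% of tested genes, at an unadjusted p under 0.05 also 0, and under DESeq2 and limma-voom 0. The median log2 fold change of the 8 was −1.57, against 0.03 for all tested genes. Both DCKO libraries lay below both Control libraries in 8 of the 8 genes, against 32.9% of tested genes. In bulk tissue, fewer cells of a type and less RNA per cell cannot be told apart. Without Control 1, and likewise without Control 2, only Sox1, Sox3 and Nes kept an adjusted p under 0.05, so 3 genes were called. Fits with 1 DCKO library left out, here and below, take no error from the spread between DCKO libraries. Their calls rest on the Control pair and on variance shared across genes.

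**Figure D1:**
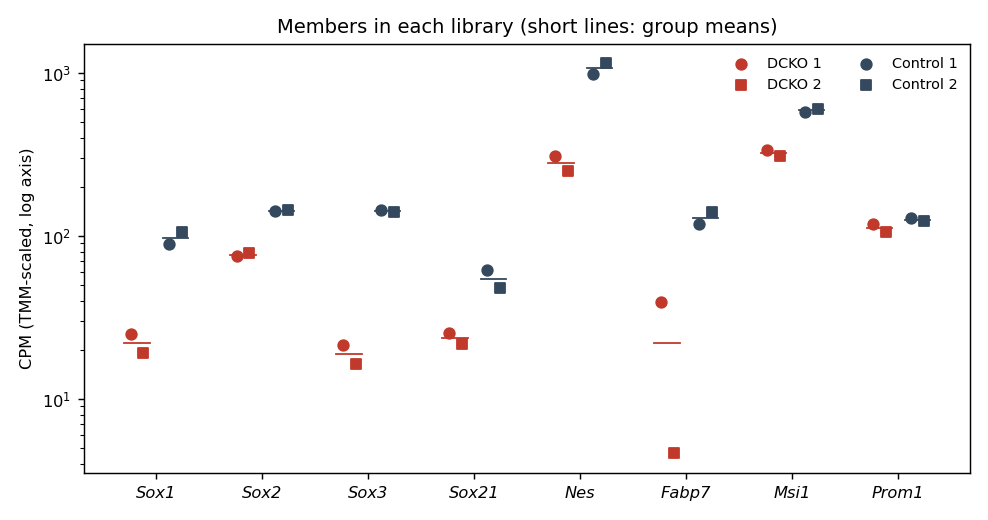
CPM (read counts scaled to library size with TMM factors, log axis) of the 8 genes in each library, with DCKO 1 and 2 (red) left of Control 1 and 2 (blue) and a short line at each group mean. DCKO points lie below Control points in all 8 genes, by a wide margin in Sox3 and a narrow one in Prom1, and the DCKO libraries stand far apart only in Fabp7, at 39.3 and 4.63 CPM.

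Library totals were 41798361 to 45102704 counts in DCKO and 45190611 to 55137810 in Control. The ribosomal RNA cluster took 24.7 and 30.3% of counts in DCKO, against 13.2 and 12.4% in Control. With that cluster left out, the same count of 6 members was called lower. No member had fewer than 171 counts in a library, and 3 counts correspond to 0.0479 to 0.0812 CPM. Lats1 had 30.0 and 29.7 CPM in DCKO, against 44.2 and 65.6 CPM in Control, a log2 fold change of −0.88 (SE 0.23, edgeR adjusted p = 0.0538). Lats2 had 21.2 and 35.3 CPM in DCKO, against 26.7 and 13.3 CPM in Control, and the groups overlap (log2 fold change 0.50, edgeR adjusted p = 0.426). These are gene-wide counts, so they do not isolate the floxed exons. Xist, the X-inactivation RNA, had 8 and 22 counts in DCKO, against 10837 and 7786 in Control, so embryo sex and genotype cannot be told apart. Sox3 is X-linked: 6.31% of 602 tested X-linked genes were lower in DCKO, with a median log2 fold change of 0.06.

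Sequence just before the transcript start is shown for 4 genes, because these promoters lie in front of members that fell (Sox2, Sox21, Nes) and of the gene with the widest library difference (Fabp7). Each line gives bases upstream of the RefSeq start in GRCm38.p6, read 5′ to 3′ on the gene's strand and kept clear of the gene's own annotated exons. Exons of other genes were not checked. Capitals mark matches, on either strand, to the SOX core ACAAAG, the RBPJ core TGGGAA, the CCAAT box (searched by those letters) or the GC box, which is spelled GGGCGG. The windows are Sox2 at chr3:34649745-34649994 (plus strand), Sox21 at chr14:118237031-118237280 (minus strand), Nes at chr3:87970843-87971077 (plus strand) and Fabp7 at chr10:57784673-57784880 (plus strand).
Sox2: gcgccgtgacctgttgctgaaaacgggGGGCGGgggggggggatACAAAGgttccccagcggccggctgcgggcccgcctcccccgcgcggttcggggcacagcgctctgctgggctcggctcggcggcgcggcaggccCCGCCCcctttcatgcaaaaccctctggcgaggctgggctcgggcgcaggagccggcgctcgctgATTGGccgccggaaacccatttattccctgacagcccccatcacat
Sox21: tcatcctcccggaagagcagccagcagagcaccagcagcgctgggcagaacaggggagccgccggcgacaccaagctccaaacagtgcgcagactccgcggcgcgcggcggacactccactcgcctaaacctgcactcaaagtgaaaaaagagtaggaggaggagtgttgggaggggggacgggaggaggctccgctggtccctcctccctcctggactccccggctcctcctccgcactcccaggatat
Nes: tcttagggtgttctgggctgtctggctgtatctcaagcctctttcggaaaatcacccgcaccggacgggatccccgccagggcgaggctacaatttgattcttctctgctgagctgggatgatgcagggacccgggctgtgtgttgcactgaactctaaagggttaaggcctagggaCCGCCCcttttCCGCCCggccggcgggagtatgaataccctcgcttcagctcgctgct
Fabp7: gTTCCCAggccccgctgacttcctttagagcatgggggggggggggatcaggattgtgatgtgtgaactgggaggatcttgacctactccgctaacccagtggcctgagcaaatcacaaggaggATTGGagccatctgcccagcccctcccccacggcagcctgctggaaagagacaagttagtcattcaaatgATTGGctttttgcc

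RefSeq windows of 250 bases were matched for 6 of the 8 genes, 7 windows in all because Prom1 has more than 1 start; Sox3 and Msi1 had none. The Sox2 window holds a SOX core whose first base is at position −206 from the RefSeq start. It is the only 1 of the 7 windows with it, against 16.5% of 32851 windows in the table. The Sox2 window ends at chr3:34649994, upstream of the GENCODE Sox2 gene, which begins at chr3:34650405. The second SOX form ACAATG was in 0 of the 7 windows against 10.7% of all, the POU octamer ATGCAAAT in 0 against 1.60%, the TEAD core GGAATG in 0 against 12.6% and TATAAA in 0 against 12.4%. The RBPJ core was in 2 of the 7 (Fabp7 and the first Prom1 start) against 21.6%. The CCAAT box was in 4 against 33.8% and the GC box in 4 against 32.7%, and the Sox21 window held none of these letters. These counts use whole windows, also where they run into annotated exons of the same gene. Read from its far end, the Sox1 window holds 26 bases before an annotated exon of Sox1, and the first Prom1 window 0 before one of Prom1. Both are among the 4 windows with a CCAAT box and the 4 with a GC box. The Sox1, Sox2 and Sox21 windows were 71.2, 72.0 and 65.2% G or C, against a median of 52.4% over all windows, while Nes (58.8%) and Fabp7 (54.8%) lay closer to it. These matches describe the letters in the windows.

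Among the SoxB1 activators, Sox3 fell most. Sox3 (ENSMUSG00000045179, chrX:60891366-60893430, minus strand, 1 exon) is expressed from the earliest neural plate. Sox3 had 21.4 and 16.5 CPM in DCKO, against 145.1 and 139.6 CPM in Control, and the groups are far apart. The means were 18.9 ± 3.46 CPM in DCKO and 142 ± 3.84 CPM in Control (SD, n = 2 each). Its log2 fold change was −2.91 (SE 0.20, edgeR adjusted p = 0.00602), so DCKO held 13.3% of the Control level. Only 238 tested genes, or 1.24%, fell by at least as much in fitted fold change.

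Sox1 (ENSMUSG00000096014, chr8:12395295-12400126, plus strand, 1 exon), which marks cells once they are committed to a neural fate, also fell. Sox1 had 25.0 and 19.1 CPM in DCKO, against 89.5 and 105.8 CPM in Control, with no overlap. Its log2 fold change was −2.15 (SE 0.21, edgeR adjusted p = 0.00806), and DCKO held 22.6% of the Control level. Sox2 (ENSMUSG00000074637, chr3:34650405-34652461, plus strand, 1 exon), the SoxB1 factor that neural and pluripotent stem cells share, fell less. Sox2 had 74.8 and 78.9 CPM in DCKO, against 141.5 and 143.7 CPM in Control. These are the tightest replicates of the list, and the groups do not overlap. The log2 fold change was −0.89 (SE 0.15, edgeR adjusted p = 0.0208), with DCKO at 53.9% of Control. Without Control 1 the adjusted p was 0.133 and without Control 2 it was 0.137, at fold changes of −0.91.

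The unequal falls changed the make-up of the SoxB1 RNA. Deposited TPM are a length-scaled abundance that allows levels of different genes to be compared. In them Sox1, Sox2 and Sox3 summed to 68.3 and 78.2 TPM in DCKO, against 295 and 244 TPM in Control. That is a log2 difference of −1.88, while TMM-scaled CPM per kb of exon gave −1.63. Sox2 made up 70.1 and 76.3% of the TPM sum in DCKO, against 43.7 and 43.8% in Control. Sox3 made up 19.9 and 15.9% in DCKO, against 44.6 and 42.4% in Control. Sox1 made up 9.97 and 7.84% in DCKO, against 11.8 and 13.7% in Control. Sox2 and Sox3 thus stood about level in Control, and Sox2 led in both DCKO libraries. No share overlapped between the groups, and the exact two-sided permutation test gave p = 0.333 for each, which is the smallest p that 2 against 2 libraries allow.

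**Figure D2:**
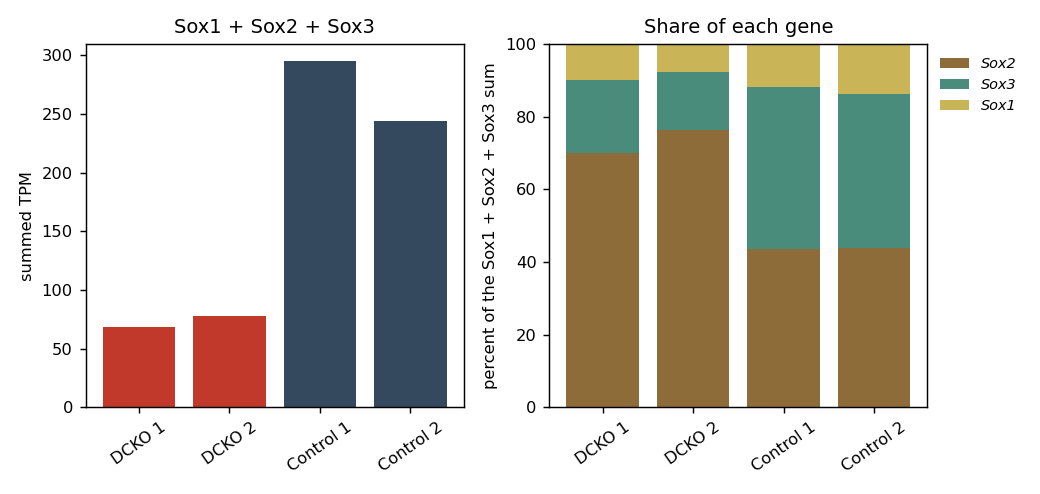
Left, summed TPM of Sox1, Sox2 and Sox3 in each library, with DCKO (red) left of Control (blue). Right, the percent of that sum taken by each gene: the Sox2 part is 70.1 and 76.3% in DCKO and 43.7 and 43.8% in Control.

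Ratios to Sox2 within a library are free of library scaling and show the same inequality. The Sox3 to Sox2 CPM ratio was 0.286 and 0.209 in DCKO, against 1.02 and 0.972 in Control, a log2 difference of −2.03. The Sox1 ratio was 0.334 and 0.241 in DCKO, against 0.633 and 0.736 in Control, and the Nes ratio 4.11 and 3.19 in DCKO, against 6.99 and 7.96 in Control. In these 3 ratios the groups do not overlap. The Msi1 ratio was 4.51 and 3.89 in DCKO, against 4.05 and 4.21 in Control, and the Sox21 ratio 0.339 and 0.275 in DCKO, against 0.436 and 0.333 in Control, and both overlap. The Prom1 ratio was higher in DCKO, at 1.59 and 1.35, against 0.904 and 0.857 in Control. Of the 7 ratios computed, the 5 without overlap had an exact two-sided permutation p of 0.333, the smallest possible, and none can pass 0.05 in this design.

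**Figure D3:**
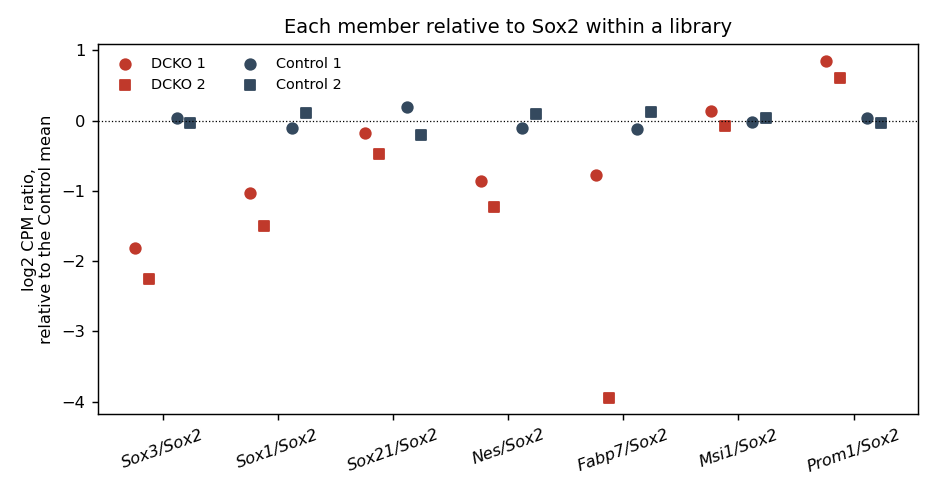
Log2 of the CPM ratio of each other member to Sox2, relative to the mean of the Control libraries (dotted line at 0), with DCKO 1 and 2 (red) left of Control 1 and 2 (blue). The DCKO points lie below the Control points for Sox3, Sox1, Nes and Fabp7, mix with them for Msi1 and Sox21, and lie above them for Prom1.

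RNAs annotated beside or across these genes were read as well, since whether strand was used in counting is not given in the sources used here. Sox2ot, a long noncoding RNA in whose span Sox2 lies on the same strand with no shared exonic bases, had 13.5 and 15.1 CPM in DCKO, against 6.68 and 10.4 CPM in Control. Its log2 fold change was 0.74 (SE 0.28, edgeR adjusted p = 0.124), opposite in sign to that of Sox2. Sox1ot, on the strand of Sox1 with no shared exonic bases, fell: 2.33 and 1.27 CPM in DCKO, against 7.95 and 10.1 CPM in Control (log2 fold change −2.32, SE 0.40, edgeR adjusted p = 0.0214). In the main edgeR fit both RNAs had an unadjusted p under 0.05, Sox2ot at 0.0419 and Sox1ot at 0.0014. Without Control 1 or Control 2, neither RNA of this pair was called in edgeR. The miRNA gene Gm25239 lies in the Sox1 exon and had 1 count in each library.

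Sox21 (ENSMUSG00000061517, chr14:118233232-118237030, minus strand, 1 exon), the SoxB2 repressor, fell along with the activators. Sox21 had 25.4 and 21.7 CPM in DCKO, against 61.7 and 47.8 CPM in Control, and all DCKO values lie below all Control values. The log2 fold change was −1.22 (SE 0.20, edgeR adjusted p = 0.0199), with DCKO at 43.0% of Control. Without Control 1 it was −1.03 with an adjusted p of 0.132, and without Control 2 it was −1.42 with 0.0750 (edgeR). An antisense predicted gene, Gm4675, shares 713 exonic bases with Sox21, so reads of the pair may be split between them. Gm4675 had 10.5 and 6.25 CPM in DCKO, against 15.3 and 13.9 CPM in Control, and its log2 fold change was −0.80 (edgeR adjusted p = 0.127).

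Of the progenitor marks, Nes (ENSMUSG00000004891, chr3:87971078-87980451, plus strand) fell most among those called. Nes had 307.3 and 251.9 CPM in DCKO, against 988.8 and 1143 CPM in Control. The groups are separated by several times the spread within either. Its log2 fold change was −1.93 (SE 0.19, edgeR adjusted p = 0.00806), and DCKO held 26.2% of Control. Msi1 (ENSMUSG00000054256, chr5:115429599-115455698, plus strand), whose protein binds target mRNAs in progenitors, fell to 337.8 and 307.3 CPM in DCKO, against 572.5 and 604.7 CPM in Control. The log2 fold change was −0.87 (SE 0.16, edgeR adjusted p = 0.0240), with no overlap and DCKO at 54.8% of Control. Without Control 1 and without Control 2 its adjusted p was 0.132 and 0.144, at fold changes of −0.91 and −0.86.

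Fabp7 (ENSMUSG00000019874, chr10:57784881-57788450, plus strand) had the second lowest fitted fold change and the widest error. Fabp7 had 39.3 and 4.63 CPM in DCKO, against 117.6 and 141.0 CPM in Control, from 1572 and 171 counts in DCKO and 7364 and 7134 in Control. Both DCKO values lie below Control, but DCKO 1 was 8.49-fold above DCKO 2. Of 13189 genes averaging a log2 CPM of 1 or more, only 0.675% differed as much between the DCKO libraries. The log2 fold change was −2.56 (SE 0.91, 95% interval −4.82 to −0.29, edgeR adjusted p = 0.108). Without DCKO 1 it was −4.81, and without DCKO 2 it was −1.72. Each of these fits holds 1 DCKO library, so the spread between DCKO libraries is not in its error.

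Prom1 (ENSMUSG00000029086, chr5:43993620-44102032, minus strand) differed least. Prom1 had 118.7 and 106.2 CPM in DCKO, against 128.0 and 123.2 CPM in Control. The DCKO values lie just below the Control values. The log2 fold change was −0.16 (SE 0.16, 95% interval −0.55 to 0.23, edgeR adjusted p = 0.505), an interval that leaves room for a fall of up to 0.55 or a rise of up to 0.23. The predicted gene Gm16401, on the opposite strand, shares 424 exonic bases with Prom1.

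**Figure D4:**
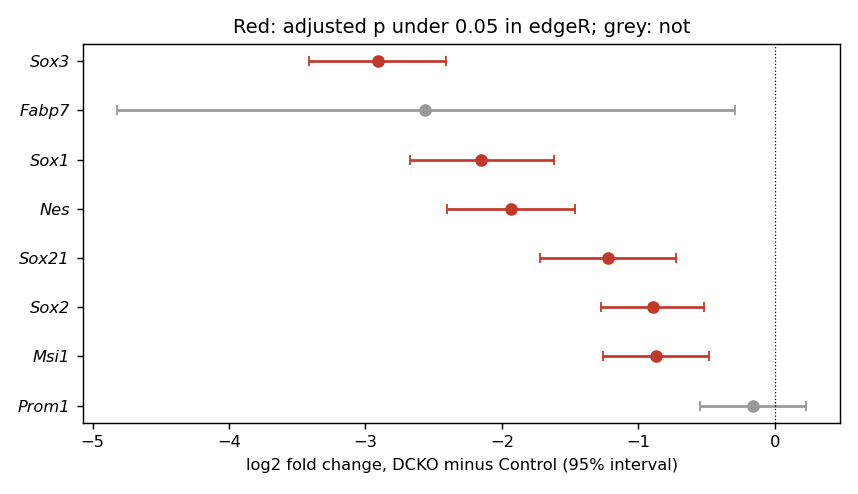
Log2 fold change, DCKO minus Control, of the 8 genes with 95% intervals from edgeR (2 libraries per group), in red where the adjusted p was under 0.05 and in grey otherwise. Sox3 is lowest at −2.91, the Fabp7 interval is the widest, and the Prom1 interval spans 0.

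The order of mean TPM levels differed between the groups. In DCKO the order was Msi1, Nes, Sox2, Prom1, Fabp7, Sox3, Sox21 and Sox1. There Sox2 overlapped Prom1, and the Fabp7 values overlapped those of Sox2, Prom1, Sox3 and Sox21. In Control the order was Msi1, Nes, Fabp7, Sox2, Sox3, Prom1, Sox1 and Sox21, and only Sox2 and Sox3 overlapped. Fabp7 had 64.2 and 8.83 TPM in DCKO, against 274 and 268 TPM in Control. Its move down the order of means came from DCKO 2. In DCKO 1 Fabp7 stood between Nes (67.5 TPM) and Sox2 (47.9 TPM), as in Control. Prom1 had 46.2 and 49.9 TPM in DCKO, against 69.1 and 56.4 TPM in Control, and moved up it. In 7 of the 8 genes DCKO 2 was lower than DCKO 1 in CPM, Sox2 being the exception.

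The authors' deposited table gives log2 fold changes of −2.09 for Sox1, −0.84 for Sox2, −2.85 for Sox3, −1.16 for Sox21, −1.88 for Nes, −2.51 for Fabp7, −0.81 for Msi1 and −0.10 for Prom1. Of the 8, 7 have a false discovery rate under 0.05 in the authors' deposited table, Fabp7 with 0.001 among them, against 13.2% of its 12574 genes that are lower in DCKO at that rate. Prom1 has 0.806 there, in the authors' deposited table.

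The genes whose profile over the 4 libraries was nearest to each member, by distance between centred log2 CPM among 12067 genes, gave another view of the same values. The nearest to Sox3 was Ccdc177 (distance 0.13), with 3.55 and 2.46 CPM in DCKO, against 24.6 and 23.5 CPM in Control. Sox2 lay nearest to Gpat4 (0.02), Sox1 to Asic1 (0.05), Sox21 to Mob1b (0.12), Nes to Tcerg1l (0.09), Msi1 to Plxnb1 (0.03) and Prom1 to Rab7 (0.01). For Fabp7 it was Lrrn2 (0.17), with 3.52 and 0.325 CPM in DCKO, against 10.1 and 12.7 CPM in Control, so Lrrn2 too was much lower in DCKO 2 than in DCKO 1.

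Other neuroepithelial progenitor and radial glia genes did not move as a block. Of 25 tested, 10 fell and 1 rose, against 8.11% lower and 8.93% higher over all tested genes. The list median log2 fold change was −0.60. Rfx4, a ciliogenic transcription factor of the neural tube, had 24.2 and 25.2 CPM in DCKO, against 89.3 and 71.2 CPM in Control (log2 fold change −1.70, SE 0.18, edgeR adjusted p = 0.00927). Hes5, a Notch effector that keeps progenitors undifferentiated, had 23.1 and 5.09 CPM in DCKO, against 206.5 and 249.6 CPM in Control (−4.01, SE 0.72, edgeR adjusted p = 0.0240). DCKO 2 was again the lower DCKO library for Hes5. Ttyh1, a membrane protein of neural progenitors, fell by 2.65 on the log2 scale and the receptor Notch1 by 1.16. Pax6, Lhx2, Id4, Ptprz1, Ccnd1 and Cspg5 also fell. Of these, Ptprz1, Lhx2 and Id4 lay close to the threshold (edgeR adjusted p = 0.0485, 0.0490 and 0.0498). Lhx2 had 3.25 and 1.14 CPM in DCKO, against 9.09 and 44.3 CPM in Control.

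Mfge8, a secreted glycoprotein, was the 1 gene that rose, with 85.0 and 50.2 CPM in DCKO, against 28.9 and 31.4 CPM in Control (log2 fold change 1.16, edgeR adjusted p = 0.0446). Vim, the intermediate filament vimentin that mesenchyme expresses too, had 1710 and 1301 CPM in DCKO, against 862 and 995 CPM in Control, and did not pass (0.70, edgeR adjusted p = 0.0702). The neuroepithelial cadherin Cdh2 (0.12) and Gli3 (−0.15), a mediator of hedgehog signals, were not called. Without Control 1 edgeR called 3 of the 25 lower and without Control 2 it called 1, against 13 and 12 at an unadjusted p under 0.05, and without either DCKO library it called 3 higher. Summed over the list, CPM was 3714 and 3099 in DCKO, against 3431 and 3781 in Control, and Vim was the largest term of that sum in every library.

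Of 13 other Sox genes tested of 15 listed, 2 fell and 2 rose, against 8.11% lower and 8.93% higher over all tested genes. Counts this small are not read as a trait of the family. Sox13 (log2 fold change −1.31, edgeR adjusted p = 0.0156) and the SoxC factor Sox11 (−0.95, edgeR adjusted p = 0.0256), which acts in differentiating neurons, fell. Sox11 had 401 and 335 CPM in DCKO, against 744 and 674 CPM in Control. Sox17 (2.29, edgeR adjusted p = 0.0157) and Sox7 (1.28, edgeR adjusted p = 0.0282), both SoxF factors expressed in endothelium, rose. Sox10, a neural crest factor, had 1.38 and 24.1 CPM in DCKO, against 1.49 and 2.21 CPM in Control, so only DCKO 2 was high. Without Control 1, and likewise without Control 2, edgeR called 0 lower and 0 higher. At an unadjusted p under 0.05, 6 were lower and 2 higher without Control 1, and 2 were lower and 3 higher without Control 2. Without DCKO 1 edgeR called 2 lower and 4 higher, and without DCKO 2, 4 lower and 2 higher.

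POU factors that pair with Sox proteins were lower in DCKO in 3 of 5 tested, against 8.11% of all tested genes. Pou3f4 (Brn4) had 22.2 and 15.6 CPM in DCKO, against 72.6 and 75.0 CPM in Control (log2 fold change −1.96, edgeR adjusted p = 0.00981). Pou3f1 (−2.09, edgeR adjusted p = 0.0288) and Pou3f2 (−1.49, edgeR adjusted p = 0.0408) also fell, while Pou3f3 (−2.46, edgeR adjusted p = 0.0523) did not pass. Pou5f1, the pluripotency factor, had 0 counts in all 4 libraries and was not tested. Without Control 1 edgeR called 1 of the 5 and without Control 2 it called 0, against 4 at an unadjusted p under 0.05 in both cases.

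Over all tested genes, edgeR called 8.11% lower and 8.93% higher, and calls among relatives of the members lay near those shares. Of 9 tested of 10 listed, edgeR called 0 lower, at an unadjusted p under 0.05 also 0, and DESeq2 and limma-voom 0. Higher in DCKO were 1 in edgeR (3 at an unadjusted p under 0.05), 3 in DESeq2 and 1 in limma-voom. The 1 that rose in edgeR was Prom2, a relative of Prom1 found in epithelia. Prom2 had 2.50 and 1.46 CPM in DCKO, against 0 counts in Control. Its mean DCKO CPM was 36.9-fold the mean CPM that a floor of 3 counts per Control library gives. Msi2, the paralogue of Msi1, had a log2 fold change of −0.10 (edgeR adjusted p = 0.684), and Fabp5, a relative of Fabp7, −0.05. Without DCKO 1, edgeR called 3 relatives lower and 1 higher, and without DCKO 2, 1 lower and 3 higher. Without Control 1 edgeR called 1 higher, and without Control 2 it called 0 higher (3 at an unadjusted p under 0.05).

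Markers of other cells moved with the same comparison, and their part in the results on the 8 genes was not tested. Over all tested genes, edgeR called 8.93% higher. Surface ectoderm markers rose in 9 of 10 tested, with a summed CPM of 292 and 303 in DCKO, against 18.8 and 22.8 in Control. Trp63, which marks stratified epithelium, had 17.5 and 17.6 CPM in DCKO, against 0.0319 and 0.0395 CPM in Control. Krt5 had 36 and 0 counts in DCKO and Krt14 0 and 13, against 0 in both Control libraries for each, and neither was tested. Cranial mesenchyme markers rose in 9 of 12, with a sum of 2292 and 1068 CPM in DCKO, against 332 and 379 CPM in Control. Endothelial markers rose in 7 of 10, with a sum of 867 and 505 CPM in DCKO, against 180 and 170.5 CPM in Control. Within all 3 lists, both DCKO libraries were above both Control libraries in sum. Without Control 1 and without Control 2, edgeR called 6 and 4 surface ectoderm markers, 1 and 0 endothelial markers (8 and 8 at an unadjusted p under 0.05) and 0 and 0 mesenchyme markers (11 and 10).

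Neuronal markers fell in 3 of 12 (Elavl4, Dcx and Map2) and rose in 1 (Syt1), against 8.11% and 8.93% of all tested genes. Their median was −1.34. Their sum was 967 and 373 CPM in DCKO, against 1399 and 1730 CPM in Control, and DCKO 2 was lowest, as for Fabp7 and Hes5. Without DCKO 1 edgeR called 10 of the 12 lower and without DCKO 2 it called 6, while without Control 1 or Control 2 it called 0 lower (5 and 3 at an unadjusted p under 0.05). Erythroid markers fell in 6 of 8, with a sum of 713 and 467 CPM in DCKO, against 1933 and 2826 CPM in Control. Without Control 1 edgeR called 3 of these and without Control 2 it called 0, against 6 at an unadjusted p under 0.05 in both. Neural crest markers rose in 2 of 8 (Erbb3 and Ets1), with a sum of 161 and 229 CPM in DCKO, against 109 and 103.5 CPM in Control. Without DCKO 1 edgeR called 5 of them higher, and without either Control library 0 (2 without Control 1 and 3 without Control 2 at an unadjusted p under 0.05). Macrophage markers were called in 0 of 8 by edgeR, limma-voom and DESeq2 alike, with 0 at an unadjusted p under 0.05 in edgeR, and summed to 67.5 and 18.5 CPM in DCKO, against 23.3 and 27.5 CPM in Control. Without DCKO 2, edgeR called 6 of these 8 higher. Of 5 pluripotency markers only Utf1 was tested (log2 fold change 3.38, edgeR adjusted p = 0.0881), and Pou5f1 and Zfp42 had 0 counts in every library.

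**Figure D5:**
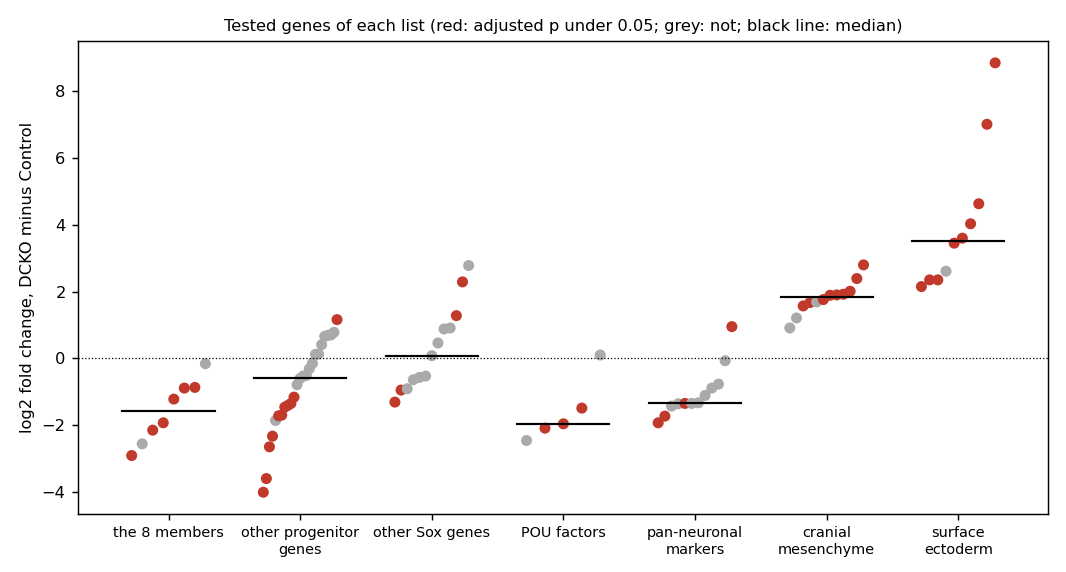
Log2 fold change, DCKO minus Control, of the tested genes in each list (red: adjusted p under 0.05 in edgeR; grey: not; black line: list median; dotted line at 0). The 8 members lie below 0 with a median of −1.57, other progenitor genes spread on both sides of 0, and surface ectoderm and mesenchyme markers lie above it.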

How the data were processed

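RNA of 4 cranial neural tubes was sequenced with a stranded kit, per the labels. The authors deposited read counts per Ensembl gene and TPM, plus a table of log2 fold changes, p-values and false discovery rates. Per the submitters' processing notes, with roles not given, the tools were R 3.3.2, limma 3.30.13, edgeR 3.16.5, StringTie and TopHat2 2.1.1, and the builds mm10 and GRCm38. How counts were made and whether strand was used are not given in the sources used here. Symbols and coordinates are from GENCODE M21; 54409 IDs matched and 123 did not. Promoter windows are RefSeq's.

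Counts were tested with edgeR 4.0.16 in R 4.3.3 (filterByExpr, minimum count 10, minimum total 15; TMM scaling; quasi-likelihood test with group as the only term, leaving 2 residual degrees of freedom; two-sided; Benjamini-Hochberg over all tested genes, threshold 0.05). The code was tested on simulated data. CPM use TMM-scaled totals; floors of 3 counts cover counting error alone. DESeq2 1.42.0, limma 3.58.1, other scalings and filters, TPM on a log2 scale with pseudocounts of 1 and 0.1, a replicate block and leaving out each library were alternatives. Nothing says whether embryos shared a litter. The edgeR p-values set the group difference against the spread within groups of these 4 samples, with variance shared across genes. Libraries of a group differed beyond sampling noise (chi-square per degree of freedom 109 in DCKO, 71.6 in Control).

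The members and lists were chosen with earlier results of these data known. Named genes are the members, the called genes with the smallest p-values in each list (at most 4, or 1 uncalled gene where none passed), the nearest profile to each member, overlapping genes, Lats1, Lats2, Xist and ribosomal RNA. Other genes of the progenitor, Sox, POU and relative lists, and Krt5 and Krt14, were named after their values were seen. A result on neural crest markers is not reported here.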

Additional observations from a re-analysis of the deposited data

How the results depend on the processing

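No value of the 8 genes changed direction under any alternative run. Over all genes, 1558 were lower and 1716 higher in DCKO. Lower counts were 3744 under library totals (which shift the median log2 fold change of all genes by −0.35), 2594 under DESeq2, 776 with a replicate block and 72 to 2565 with 1 library left out. Higher counts were 2602 under DESeq2, 1007 and 958 with log2(TPM + 1) and log2(TPM + 0.1), 1002 with the replicate block and 155 to 2619 with 1 library left out. With unfiltered log2(TPM + 1), limma called 0 genes lower, 0 higher and 0 of the 8, against 4040, 2374 and 7 at an unadjusted p under 0.05. That fit gave −2.23 for Sox1 (adjusted p = 0.0866), −1.12 for Sox2 (0.104), −3.07 for Sox3 (0.0745), −1.36 for Sox21 (0.114), −2.16 for Nes (0.0745) and −1.11 for Msi1 (0.0978), and the cause was not tested. Leaving out 1 library called 3 to 7 of the 8, with log2 fold changes of −0.93 to −0.86 for Sox2, −1.42 to −1.03 for Sox21, −0.94 to −0.80 for Msi1 and −4.81 to −1.72 for Fabp7. Fabp7 passed under limma-voom (−3.22, adjusted p = 0.0441), log2(TPM + 1) (−3.43, 0.00701) and log2(TPM + 0.1) (−3.50, 0.0110), also for causes not tested. Prom1 passed in 0 of 16 settings (edgeR, DESeq2 and limma), with adjusted p of 0.0674 to 0.818.

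Whether same-numbered libraries share a litter or a batch is not given. Their deviations correlated at −0.0371 across genes, and with 1 difference per group this value cannot decide it. With the replicate block, Sox2 (−0.89, edgeR adjusted p = 0.0509) and Msi1 (−0.87, 0.0569) were not called, and the calls of the other members stood. With 2 libraries a group, the main edgeR fit leaves 2 residual degrees of freedom. Its standard errors, intervals and p-values also draw on variance shared across genes, so they rest on more than those 2.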
